A study of Mus musculus with 10 samples.

Results

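Genes that mark the neurons and glia of the gut wall were examined in the jejunum, namely *Elavl4*, *Tubb3*, *Uchl1*, *Ret*, *Chat*, *Vip*, *Nos1* and *S100b*. The 8 genes were taken by symbol, and these 8 of the 45707 rows of the expression table were read in all 10 libraries. The libraries came from 5 Vil-Cre and 5 Vil-Cre:NDI1 mice, with 1 library per mouse, and addressed whether expression of NDI1, the NADH dehydrogenase of *Saccharomyces cerevisiae*, alters the jejunal transcriptome. All animals carried Villin-Cre, and the Vil-Cre:NDI1 mice also carried NDI1 behind a lox-stop-lox cassette at *ROSA26*. All were male littermates aged 8 to 12 weeks, fasted overnight for 16 to 18 h and given water by oral gavage, and the jejunum was collected 1 h later and flushed. Villin-Cre acts in the intestinal epithelium, whereas the marker genes described here belong mainly to cells of the wall, although some are also expressed by epithelial cells.

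The enteric nervous system is a network of neurons and glia lying between the muscle layers and in the submucosa, and it controls motility, secretion and blood flow. Excitatory motor neurons release acetylcholine, and inhibitory motor neurons release nitric oxide and vasoactive intestinal peptide. The network is built by neural crest cells that need the receptor RET to colonize the gut, and it is accompanied by glia that express the calcium-binding protein S100B.

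Values are normalized counts, that is, reads of a gene divided by a size factor of the library, and each library held between 10145705 and 12371530 reads assigned to genes. NDI1 had 0, 0, 1, 0 and 0 reads in Vil-Cre 1 to 5, and 1002, 1505, 2659, 1423 and 1287 reads in Vil-Cre:NDI1 1 to 5, so every library matched its label. The signal of marker genes of muscle and of other tissue differed between libraries within each genotype. The mean log2 level of 15 smooth muscle genes was 9.87 in Vil-Cre 4 and 9.94 in Vil-Cre:NDI1 1, against 10.36 to 10.84 in the other 8 libraries. The ileal gene *Slc10a2* ranged from 199.0 to 561.4 in Vil-Cre 1, 2 and 5 and Vil-Cre:NDI1 4 and 5, and from 2.9 to 21.0 in the other 5 libraries, which goes beyond the jejunum label. The mean log2 level of a list of B and plasma cell genes was highest in Vil-Cre 5, at 8.95, against 6.83 to 8.20 elsewhere.

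No difference between the genotypes was called for any of the 8 genes. With limma on log2(normalized count + 1) over the 14301 genes that reached 10 normalized counts in 5 or more libraries, all 8 were tested and 0 passed an adjusted p of 0.05 (Benjamini-Hochberg over all genes tested), and 0 passed an unadjusted p of 0.05. Over all genes tested, 0.00699% passed the adjusted threshold, which was the NDI1 transgene alone, and 4.24% passed the unadjusted one. The groups overlapped for all 8 genes, against 0.699% of all genes for which they did not. Log2 fold changes (Vil-Cre:NDI1 over Vil-Cre) were positive for 2 genes and negative for 6, with a median of -0.15, against 0.0052 over all genes tested. The count tests on the reads behind the values called 0 of the 8 as well, with 0.179% of genes called by DESeq2 and 0.007% by edgeR. In whole tissue, fewer cells of a type and less RNA per cell cannot be told apart.

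**Figure D1:**
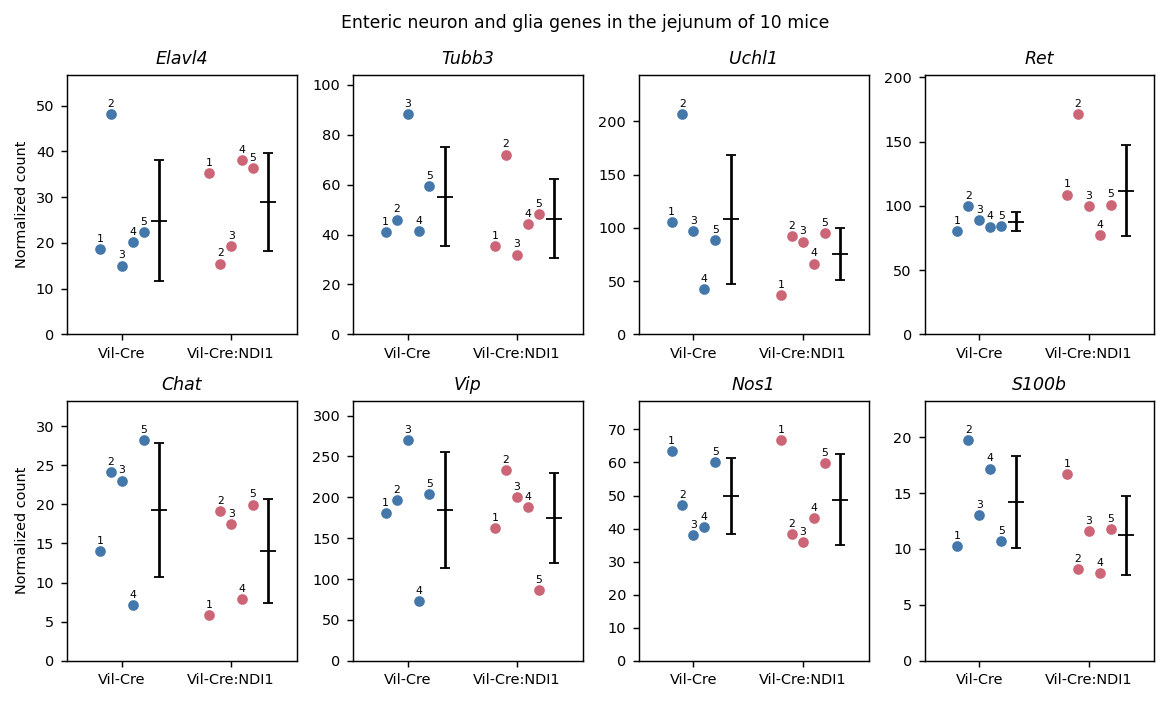
Normalized counts (vertical axes, each from 0) of the 8 genes in 5 Vil-Cre and 5 Vil-Cre:NDI1 mice. Each point is a mouse with its replicate number, and the bar beside each group is its mean ± SD. The groups overlap in every panel, and *Ret* has the tightest control group, 80.4 to 99.6.

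Among the pan-neuronal genes, *Elavl4* encodes the neuronal RNA-binding protein HuD. It lies on the minus strand at chr4:110203722-110351909 (GRCm38, the build of the alignment, with gene limits from GENCODE M21). Its normalized counts were 18.7, 48.2, 15.03, 20.2 and 22.3 in Vil-Cre 1 to 5 and 35.3, 15.5, 19.4, 38.2 and 36.4 in Vil-Cre:NDI1 1 to 5. The values formed a low and a high set that both held mice of each genotype, with Vil-Cre 2 highest of all. Group means were 24.9 ± 13.3 without and 28.9 ± 10.7 with NDI1 (SD, n = 5 each). The log2 fold change was 0.24 ± 0.36 (SE), with a 95% confidence interval from -0.55 to 1.04, and a two-sided exact permutation test over the 252 assignments of mice gave p = 0.532.

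*Tubb3*, the neuronal class III β-tubulin, lies at chr8:123411424-123422015 on the plus strand. It was at 41.1, 46.0, 88.2, 41.5 and 59.2 in Vil-Cre mice and at 35.3, 72.0, 32.0, 44.1 and 48.1 in Vil-Cre:NDI1 mice. Vil-Cre 3 and Vil-Cre:NDI1 2 stood highest, and 1 of 5 Vil-Cre:NDI1 mice exceeded the Vil-Cre mean. The log2 fold change was -0.24 ± 0.28 (SE), with an interval from -0.85 to 0.36 (exact permutation p = 0.413).

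*Uchl1* encodes the ubiquitin hydrolase known as PGP9.5, a general neuronal marker that neuroendocrine cells also express, and lies at chr5:66676091-66687234 on the plus strand. Vil-Cre mice had 105.6, 206.8, 97.2, 42.5 and 88.4, and Vil-Cre:NDI1 mice had 37.2, 92.0, 87.1, 66.6 and 95.1. The range spanned 5.55-fold, the widest of the 8 genes, from Vil-Cre:NDI1 1 to Vil-Cre 2. The 2 lowest values were those of the 2 libraries with the least smooth muscle signal. All 5 Vil-Cre:NDI1 values lay below the Vil-Cre mean of 108 ± 60.4 (SD, n = 5), a mean raised by Vil-Cre 2. The log2 fold change was -0.41 ± 0.38 (SE), with an interval from -1.25 to 0.43 (exact permutation p = 0.310). An antisense gene, *Uchl1os*, shares 295 bp of exon with *Uchl1* and was listed at 0 in all libraries.

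*Ret*, the receptor of the glial cell line-derived neurotrophic factor family, lies on the minus strand at chr6:118151745-118197718. It was at 80.4, 99.6, 89.2, 83.9 and 84.5 in Vil-Cre mice and at 108.8, 171.3, 99.7, 77.4 and 100.9 in Vil-Cre:NDI1 mice. Here 4 of 5 Vil-Cre:NDI1 mice exceeded the Vil-Cre mean, 1 of them well above the rest, and the lowest value was also from a Vil-Cre:NDI1 mouse. Means were 87.5 ± 7.44 and 112 ± 35.3 (SD, n = 5 each). With a log2 fold change of 0.30 ± 0.19 (SE) and an interval from -0.12 to 0.72, equivalent to 0.920- to 1.65-fold, *Ret* had the smallest exact permutation p of the 8 genes (p = 0.119, unadjusted, where 0.00794 is the smallest the design allows). *Ret* is not particular to neurons, since innate lymphoid cells of the gut also express it.

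For the transmitter genes, *Chat* encodes choline acetyltransferase, which makes acetylcholine, and lies on the minus strand at chr14:32408203-32465989. It was among the least abundant of the 8 genes, with 6 to 29 reads per library. Normalized counts were 14.0, 24.1, 23.0, 7.1 and 28.2 in Vil-Cre mice and 5.9, 19.1, 17.4, 7.8 and 19.95 in Vil-Cre:NDI1 mice. Low values under 8 occurred in both genotypes, in Vil-Cre 4 and in Vil-Cre:NDI1 1 and 4. The log2 fold change was -0.43 ± 0.45 (SE), with an interval from -1.43 to 0.56 (exact permutation p = 0.349), the widest interval of the 8. *Chat* is also expressed by epithelial tuft cells, and the log2 scale with a pseudocount of 1 understates changes at such counts.

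*Slc18a3*, the vesicular acetylcholine transporter that is nested within *Chat*, ranged from 4.0 to 22.3 in controls and from 2.9 to 24.7 in mice with NDI1. The high-affinity choline transporter *Slc5a7* ranged from 12.04 to 24.3 and from 8.8 to 25.8. Their log2 fold changes were -0.32 ± 0.57 and -0.37 ± 0.35 (SE), so that the whole cholinergic set overlapped between genotypes.

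*Vip* encodes vasoactive intestinal peptide and lies at chr10:5639218-5647617 on the plus strand. Its counts were the highest of the 8 genes, at 180.3, 197.0, 269.5, 72.8 and 204.0 in Vil-Cre 1 to 5 and 162.7, 233.2, 200.4, 188.0 and 86.9 in Vil-Cre:NDI1 1 to 5. Each genotype had 1 low mouse, Vil-Cre 4 and Vil-Cre:NDI1 5, and the other 8 lay between 162.7 and 269.5. The log2 fold change was -0.039 ± 0.35 (SE), with an interval from -0.80 to 0.72, or 0.574- to 1.65-fold (exact permutation p = 0.889). Its sign depended on single mice, being -0.34 without Vil-Cre 4 and 0.19 without Vil-Cre:NDI1 5.

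*Nos1*, the neuronal nitric oxide synthase, lies at chr5:117781032-117958840 on the plus strand. It was the most even of the 8 across mice, with a 1.86-fold range. The values were 63.5, 47.1, 38.1, 40.4 and 60.2 in Vil-Cre and 66.7, 38.3, 35.8, 43.1 and 59.9 in Vil-Cre:NDI1 mice. Both genotypes thus had mice near 60 and mice near 40, and the log2 fold change was -0.046 ± 0.24 (SE), with an interval from -0.56 to 0.47 (exact permutation p = 0.794).

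The glial gene *S100b* lies at chr10:76253853-76261159 on the plus strand and had 8 to 18 reads per library. It was at 10.3, 19.7, 13.0, 17.2 and 10.7 in Vil-Cre mice and at 16.7, 8.2, 11.6, 7.8 and 11.7 in Vil-Cre:NDI1 mice. High and low values were found in both groups, and Vil-Cre:NDI1 1, among the lowest for *Uchl1* and *Chat*, was among the highest here. The log2 fold change was -0.32 ± 0.32 (SE), with an interval from -1.01 to 0.37 (exact permutation p = 0.238). At this depth most of the scatter of *S100b* was of the size that read counting gives, with a within-genotype coefficient of variation of 30.4% against 28.2% from counting alone. In contrast, *Uchl1* varied by 50.04% against 10.5% from counting and *Vip* by 35.4% against 7.41%. *Dip2a* overlaps the *S100b* locus on the opposite strand without shared exon and had a mean of 544.2. Whether its reads entered the *S100b* values was not tested.

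**Figure D2:**
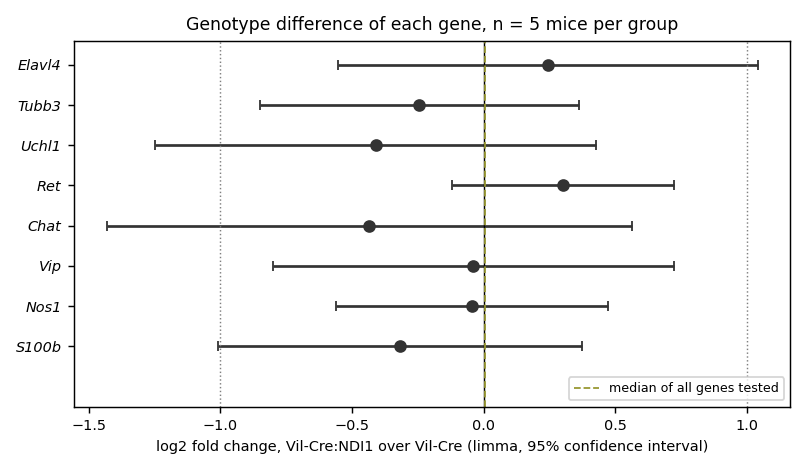
Log2 fold change of each gene (horizontal axis, Vil-Cre:NDI1 over Vil-Cre, limma) with its 95% confidence interval, n = 5 mice per group. The dashed line is the median of all genes tested, dotted lines mark a 2-fold change, and every interval includes 0.

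The intervals set what these data could show. A halving or doubling lay outside the 95% interval for *Ret*, *Tubb3*, *Vip* and *Nos1*, whereas the intervals of *Elavl4*, *Uchl1*, *Chat* and *S100b* each reached past a 2-fold change in 1 direction.

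The following upstream sequences show how unlike the starts of these genes are, for the member with the highest counts, a pan-neuronal gene and the glial gene. They are the 250 bases before the transcription start in RefSeq (GRCm38.p6), 5′ to 3′ on the gene's strand, and capitals mark matches to the motifs named after them. An entry was found for 7 of the 8 genes, and *Ret* had none. *Vip* is read from chr10:5638968-5639217 (plus strand), *Elavl4* from chr4:110351912-110352161 (minus strand, the most upstream of its 4 starts) and *S100b* from chr10:76253586-76253835 (plus strand).
Vip: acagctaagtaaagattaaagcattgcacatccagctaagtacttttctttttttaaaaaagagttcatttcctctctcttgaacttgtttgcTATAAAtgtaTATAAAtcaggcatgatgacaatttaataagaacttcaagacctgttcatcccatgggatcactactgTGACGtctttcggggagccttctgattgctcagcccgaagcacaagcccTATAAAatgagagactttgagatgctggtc
Elavl4: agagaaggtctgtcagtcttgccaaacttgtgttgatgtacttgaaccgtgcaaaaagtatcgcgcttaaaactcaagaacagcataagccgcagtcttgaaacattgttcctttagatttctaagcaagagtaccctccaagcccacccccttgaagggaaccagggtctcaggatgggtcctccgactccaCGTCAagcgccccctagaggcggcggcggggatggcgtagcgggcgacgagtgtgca
S100b: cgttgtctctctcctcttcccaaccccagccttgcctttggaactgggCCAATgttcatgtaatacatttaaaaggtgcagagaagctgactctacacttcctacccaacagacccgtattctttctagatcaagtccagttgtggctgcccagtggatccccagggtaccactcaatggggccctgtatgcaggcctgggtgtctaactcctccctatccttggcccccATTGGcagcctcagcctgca
The capitals in *Vip* are 3 TATA boxes (TATAAA), the nearest starting 30 bases before the transcription start, and the core of the cyclic AMP response element (TGACG) starting at 79 bases before it. *Elavl4* holds the same core on the opposite strand at 57 bases, and *S100b* holds CCAAT boxes (CCAAT) at 202 and, on the opposite strand, at 20 bases. Searched on both strands of 32851 RefSeq promoters, TATAAA was found in 12.4%, TGACG in 17.8% and CCAAT in 33.8%. This core was also present in *Chat* and *Nos1*, and CCAAT in *Tubb3*, *Chat* and the other starts of *Elavl4*. The *Nos1* start used lies 85807 bases from the 5′ end of the gene limits given above. No match was found in the 7 genes for the full cyclic AMP element (TGACGTCA, 1.55%, which contains the core), a SOX site (ACAAAG, 16.5%) or the neuronal silencer RE1 (0.0457%). These are matches of letters only.

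Per kilobase of exon, which allows levels of different genes to be compared, *Uchl1* and *Vip* were highest, at 56.3 and 52.8 normalized counts per kb as the mean of 10 mice. They were followed by *Tubb3* at 27.2, *Ret* at 14.7, *S100b* at 8.55, *Elavl4* at 5.00, *Nos1* at 4.42 and *Chat* at 3.54. *Uchl1* exceeded *Vip* in only 4 of 10 mice, so these neighbours did not differ beyond their spread, nor did *Elavl4* and *Nos1* (6 of 10) or *Nos1* and *Chat* (5 of 10). In contrast, *Tubb3* exceeded *Ret*, and *Ret* exceeded *S100b*, in 10 of 10 mice. The 2 inhibitory transmitter genes were far apart, with a median *Vip* to *Nos1* ratio per kb of 11.1 in Vil-Cre (5.90 to 23.2) and 14.3 in Vil-Cre:NDI1 mice (4.76 to 19.98), and the exact permutation test of this ratio gave p = 0.992. All 8 were modest within the tissue: between 3.25% of the genes tested (*S100b*) and 48.6% (*Vip*) had a lower mean normalized count, a ranking not corrected for length.

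**Figure D3:**
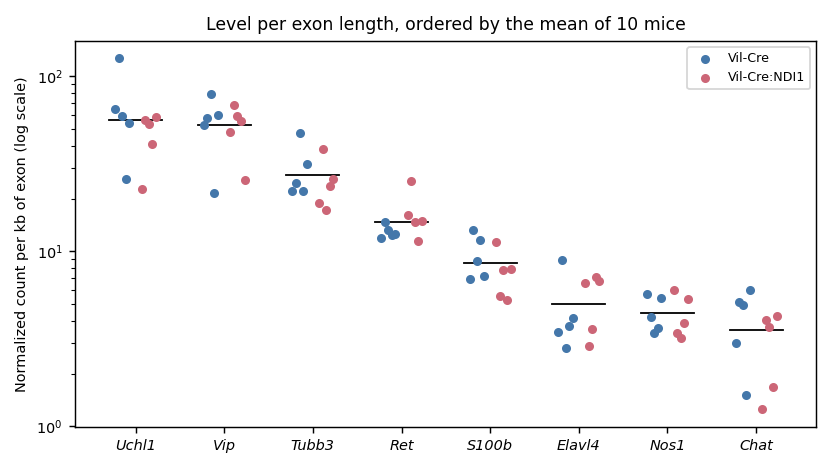
Normalized count per kb of exon (vertical axis, log scale) of the 8 genes in each mouse, ordered by the mean of 10 mice, which is drawn as a line. *Uchl1* and *Vip* overlap at the top, at means of 56.3 and 52.8, and *Elavl4*, *Nos1* and *Chat* overlap at the bottom.

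The wider neuronal and glial programmes were also without calls. Of 27 further pan-neuronal genes, 22 were tested and 0 passed the adjusted threshold, against 0.00699% of all genes. Their log2 fold changes were negative for 17 and positive for 5, with a median of -0.12, where 6982 of all 14301 genes tested were negative. Of the lists of other wall cells, 13 of 15 smooth muscle, 9 of 10 fibroblast and 5 of 5 mesothelium genes were negative. The negative genes were 4 of 6 for interstitial cells of Cajal, 4 of 8 for endothelium and 3 of 7 for adipocytes. Among T cell genes 8 of 9 were negative, while 12 of 12 enterocyte genes were positive (median 0.21). The part of these other cells in the neuronal and glial values was not tested. *Tbx3*, the most abundant of the list, is a transcription factor that is not limited to neurons and was at 3838 ± 444 without and 4125 ± 1214 with NDI1 (SD, n = 5 each). The smallest p-values of the list were those of *Sv2a*, a synaptic vesicle protein (log2 fold change -0.60 ± 0.34 SE), and *Ncam1*, a cell adhesion molecule (-0.26 ± 0.20).

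Of 25 genes for transmitter synthesis, transport and neuropeptides, 12 were tested and 0 were called, against 0.00699% of all genes. Of these 12, 10 were negative, with a median of -0.18. *Ddc*, aromatic amino acid decarboxylase, was the most abundant at 1574 ± 666 and 1513 ± 364 (SD, n = 5 each), and enterochromaffin cells of the epithelium also express it. *Penk*, the enkephalin precursor, had a log2 fold change of -0.44 ± 0.42 (SE). Among 21 receptors, 13 were tested and 0 were called, against 0.00699% of all genes. Their log2 fold changes were negative for 10, and the median was -0.24. *Vipr1*, a receptor for the peptide that *Vip* encodes and one that the epithelium also expresses, was at 3564 ± 811 without and 4196 ± 659 with NDI1 (SD, n = 5 each; log2 fold change 0.25 ± 0.16 SE). The nicotinic receptor subunit gene *Chrnb2* had the smallest p of the receptors (0.45 ± 0.25, adjusted p above 0.05).

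In the RET and endothelin pathway, which directs colonization of the gut by neural crest cells, 13 of 18 genes were tested. Of these, 0 were called, against 0.00699% of all genes, and 8 were positive, with a median of 0.097. *Gfra1*, the co-receptor of RET, had a log2 fold change of -0.62 ± 0.40 (SE), opposite in sign to that of *Ret*. *Ece1*, endothelin-converting enzyme and the most abundant gene of this list, had -0.67 ± 0.34. Which cells of the tissue gave the signal of *Ece1* and of the other genes of this list was not tested. For glia, 12 of 19 further genes were tested and 0 were called, against the same 0.00699%. Of these 12, 10 were negative, with a median of -0.26. *Cdh19*, a cadherin of neural crest-derived glia, was at 21.98 ± 2.21 without and 16.1 ± 2.93 with NDI1 (-0.43 ± 0.22), and the neurotrophin receptor *Ngfr* was at 41.9 ± 10.98 and 30.8 ± 3.23 (-0.40 ± 0.22), neither past the adjusted threshold. *Erbb3*, the most abundant gene of the glial list at 6599 ± 1908 and 6255 ± 892, is also expressed by the epithelium. The defining glial genes *Gfap* (37.4 in Vil-Cre 1 and 4.0 to 10.9 in the other 9 libraries) and *Sox10* (1.9 to 15.03) were detected in all 10 libraries.

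Between mice, the 8 genes did not rise and fall as 1 set. Counting alone gave a coefficient of variation of 28.2% for *S100b* and 24.5% for *Chat*, which limits what their r can show. Of the 28 pairs, 14 had a positive and 14 a negative Pearson's r over the 10 mice, from -0.44 to 0.81 with a median of 0.029, and 0 pairs passed an adjusted p of 0.05. *Uchl1* and *Chat* were the most alike, with r = 0.81 (permutation p = 0.00212, adjusted p = 0.0594) and rho = 0.68 (permutation p = 0.0352, adjusted p = 0.493). This r was 0.78 without the 2 mice farthest from the median of *Uchl1* and 0.79 after the genotype means were subtracted. Vil-Cre 4 had 7 of the 8 genes below their own mean, and Vil-Cre 2 had 6 above. By contrast, Vil-Cre:NDI1 1, the other library of low smooth muscle signal, had 4 above and 4 below, with the lowest *Uchl1* and *Chat* and the highest *Nos1* of all mice.

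Each gene was then set against the mean level of 13 lists of markers, which gave 104 relations. By Pearson's r, 0 passed an adjusted p of 0.05, and 18 had an unadjusted permutation p under 0.05. *Chat* followed the pan-neuronal list (r = 0.88, permutation p = 0.00082, adjusted p = 0.0636, rho = 0.81, permutation p = 0.00704, adjusted p = 0.118), with r = 0.71 without the 2 farthest mice. *Tubb3* did so as well (r = 0.85, permutation p = 0.00173, adjusted p = 0.0636), with r = 0.92 without the 2 farthest mice, and its rank correlation was the only 1 of the 104 to pass (rho = 0.92, permutation p = 0.00041, adjusted p = 0.0426). For *Elavl4* and *Nos1*, r with the same list was -0.32 and -0.20. *S100b* showed no relation to the mean of the 12 glial list genes that were tested (r = -0.03, rho = 0.10, permutation p = 0.930 and 0.784). These 12 include *Erbb3*, which the epithelium also expresses. Its r was 0.38 without the 2 farthest mice and -0.43 after the genotype means were subtracted. Most of its scatter was of counting size (30.4% against 28.2%), so this r cannot show whether glial RNA varied together. *Chat* followed the glial list more closely (r = 0.80, permutation p = 0.00532, adjusted p = 0.0902, rho = 0.81, permutation p = 0.00717). Whether any 2 of these correlations differ was not tested.

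The smooth muscle list, from the tissue that encloses the myenteric neurons, was compared in the same way. *Chat* (r = 0.86, permutation p = 0.00218, adjusted p = 0.0636, rho = 0.81, permutation p = 0.00743) and *Uchl1* (r = 0.84, permutation p = 0.00306, adjusted p = 0.0636, rho = 0.81, permutation p = 0.00733) were high where the 15 smooth muscle genes were high. Without Vil-Cre 4 and Vil-Cre:NDI1 1, the 2 libraries with the least muscle signal, r fell to 0.61 for *Chat* and 0.47 for *Uchl1*, so both relations rested in part on these mice. For *Elavl4*, *Nos1* and *Ret*, r with the smooth muscle list was -0.01, 0.01 and 0.05, and for *S100b* it was -0.31. *Uchl1* was also related to the adipocyte list (r = 0.80, permutation p = 0.00291, adjusted p = 0.0636, rho = 0.77, permutation p = 0.0125), with r = 0.38 without the same 2 libraries, and the adipocyte gene *Adipoq* was at 0 to 7.8 in Vil-Cre 4 and 5 and Vil-Cre:NDI1 1 and at 48.3 to 164.2 in the other 7. The part of tissue composition in these differences between mice was not tested.

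**Figure D4:**
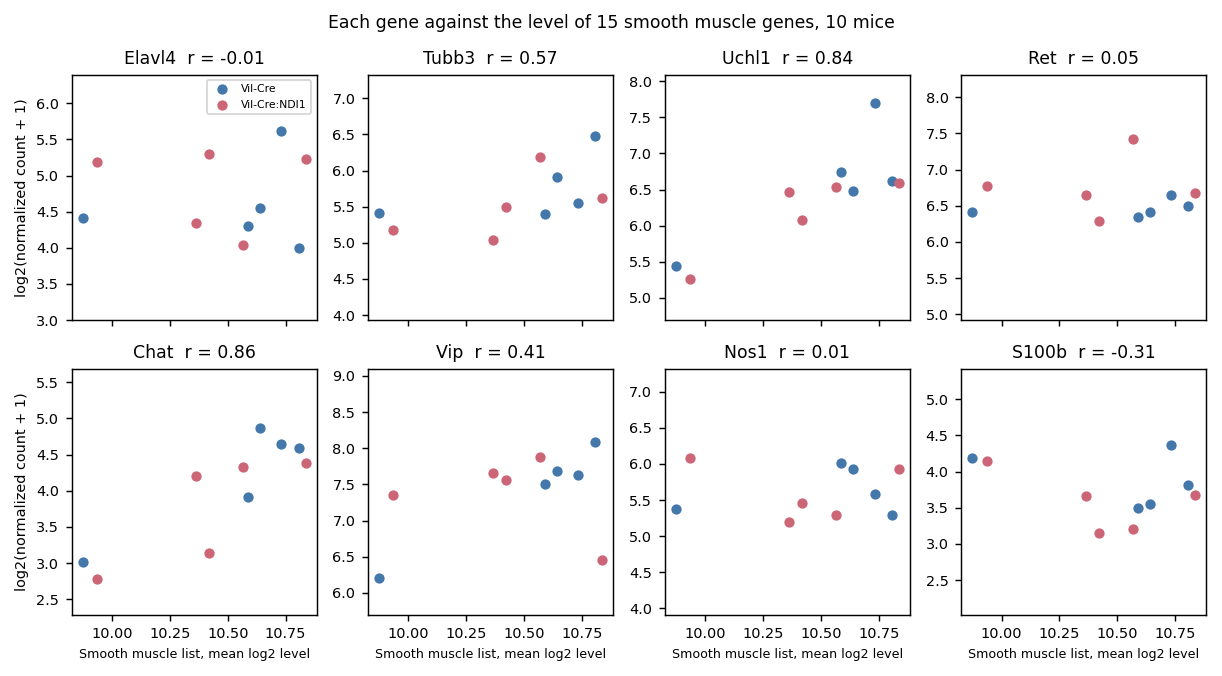
Log2(normalized count + 1) of each gene (vertical axes, all of the same span) against the mean log2 level of 15 smooth muscle genes (horizontal axes), with 1 point per mouse. *Chat* (r = 0.86) and *Uchl1* (r = 0.84) rise with it and *Elavl4*, *Nos1* and *Ret* do not (r from -0.01 to 0.05), and the 2 points at the left of each panel are Vil-Cre 4 and Vil-Cre:NDI1 1.

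Leaving these 2 libraries out did not produce a call. The log2 fold changes of the 8 genes then ranged from -0.49 (*Chat*) to 0.28 (*Ret*), and that of *Vip* moved from -0.039 to -0.34. The *Slc10a2*-high and *Slc10a2*-low libraries overlapped for each of the 8 genes. The ranges were 86.9 to 204.0 and 72.8 to 269.5 for *Vip* and 43.1 to 63.5 and 35.8 to 66.7 for *Nos1*. They were shifted more for *Uchl1*, at 66.6 to 206.8 and 37.2 to 97.2, and for *Ret*, at 77.4 to 100.9 and 83.9 to 171.3. The split was made after the values were seen, and overlap of 5 and 5 libraries cannot show that levels were alike. With the B and plasma cell list, which was highest in Vil-Cre 5, *Nos1* had r = 0.65 (permutation p = 0.0358, adjusted p = 0.233) and rho = 0.84 (permutation p = 0.00359, adjusted p = 0.118), with r = 0.53 without the 2 farthest mice. *Chat* had r = -0.22 (permutation p = 0.561, rho = -0.21, permutation p = 0.560) with that list, and r = -0.90 (permutation p = 0.00655, adjusted p = 0.170) without the 2 farthest mice, Vil-Cre 5 and Vil-Cre:NDI1 3. Without these mice, r moved from -0.07 to -0.83 for *Tubb3* (permutation p = 0.00173, adjusted p = 0.0600) and from -0.37 to -0.69 for *Uchl1*. It was then -0.42 for *Ret* and -0.32 for *Vip*, and positive for *Elavl4* (0.21) and *S100b* (0.17) as for *Nos1*.

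*Chat* and *Vip* also followed the tuft cell list (r = 0.76, permutation p = 0.0136, adjusted p = 0.142, rho = 0.76, permutation p = 0.0151; and r = 0.72, permutation p = 0.0131, adjusted p = 0.142, rho = 0.79, permutation p = 0.00796), with r = 0.72 and 0.85 without the 2 farthest mice. Of the 11 tuft genes tested, 10 had negative log2 fold changes (median -0.45) and 0 were called, against 0.00699% of all genes. An unadjusted p under 0.05 was reached by 2, both lower in mice with NDI1, against 4.24% of all genes in either direction, and 1 had groups that did not overlap, against 0.699%. The summed list spanned 1297 to 3350 in controls and 935 to 2350 in mice with NDI1. *Vip* was further related to the fibroblast list (r = 0.76, permutation p = 0.00607, adjusted p = 0.0902, rho = 0.59, permutation p = 0.0803), with r = 0.44 without the 2 farthest mice.

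**Figure D5:**
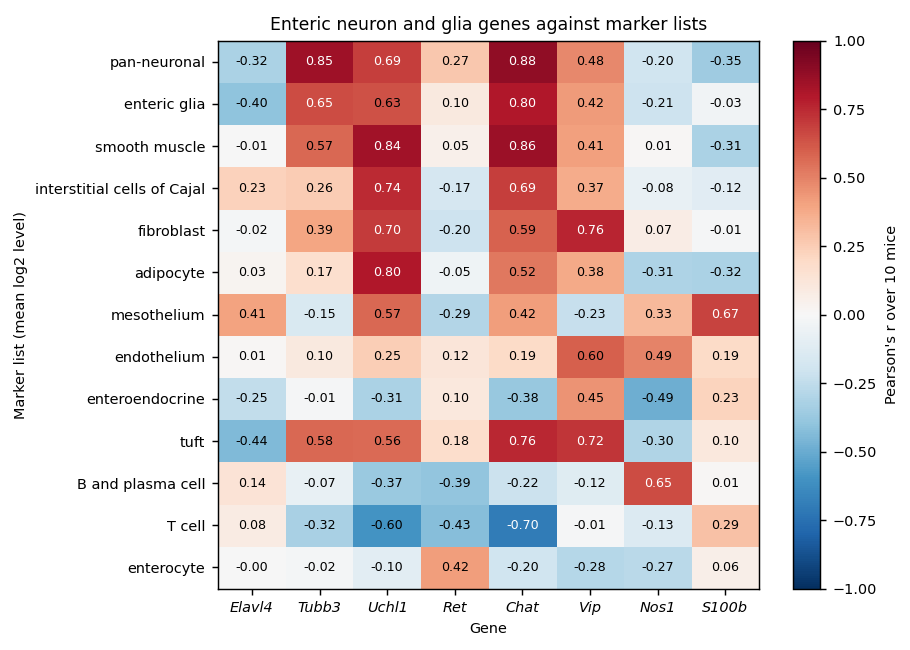
Pearson's r over 10 mice between each of the 8 genes (columns) and the mean log2 level of 13 marker lists (rows), in colour from -1 to 1 and in figures. The columns of *Chat*, *Uchl1* and *Tubb3* are positive in the upper rows, which hold the neuronal, glial and muscle lists, and those of *Elavl4* and *Nos1* are near 0 or negative for the neuronal and glial lists.

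The genes whose levels over the 10 mice were most like each member were named by Pearson's r among all genes tested, as a description. They were *Csf1* (r = 0.92) for *Elavl4*, *Myl1* (0.92) for *Tubb3*, *Abcc9* (0.98) for *Uchl1*, *Wipi1* (0.90) for *Ret*, *Defb1* (0.96) for *Chat*, *Defa23* (0.96) for *Vip*, *Tra2a* (0.89) for *Nos1* and *Hsdl1* (0.94) for *S100b*. No gene was shared between these first places. *Npy*, a neuropeptide gene with a mean of 13.5 normalized counts, ranked 3 for *Vip* (r = 0.93, rho = 0.88). Ranks 2 and 3 of the other members are not named here, so *Npy* does not show that neuronal genes varied together. *Defa23* and *Defa26*, which ranked 1 and 2 for *Vip*, are closely similar α-defensin genes whose reads may be split between copies.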

How the data were processed

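RNA sequencing libraries of 5 Vil-Cre and 5 Vil-Cre:NDI1 jejuna were analysed. The authors trimmed the reads (single-end), used STAR to align these to a GRCm38 genome that included NDI1, assigned them to genes with Salmon and deposited a signal, normalized counts (reads divided by DESeq2 size factors). The annotation release and the use of strand are not given in the sources used here. All values of each library were whole multiples of 1 read (tolerance 0.001 read), and these recovered reads entered the count tests. In Vil-Cre 3 and 4, 1 read stood for 1.00184 and 1.01109 normalized counts. Reads on genes ranged from 10145705 to 12371530, and counting CVs cover counting error only. limma 3.58.1 (R 4.3.3) with a variance trend was run on log2(value + 1) for 14301 genes. DESeq2 1.42.0 and edgeR 4.0.16 were alternatives, as were other pseudocounts, filters, scalings, covariates and leaving out each mouse. The limma, DESeq2 and edgeR fits were tested on simulated counts. Correlations used 100000 permutations. Of the 230 list genes, all 230 were matched, 2 by identifier. Exon lengths were the union of GENCODE exons. Genes named from the 5 neuronal and glial lists were the most abundant, the 2 of smallest p and those without overlap (none). Defining markers (*Gfap*, *Sox10*, *Slc10a2*, *Adipoq*) were named after their values were seen. Some list genes and motifs are not reported here. Whether mice with the same number shared a litter or day is not stated. Correlations of their deviations ranged from -0.116 to 0.136, so the numbers were not taken as pairs. The members and lists were chosen with earlier results of these data known.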

Additional observations from a re-analysis of the deposited data

Results flagged for a closer look

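Each value below is from 1 mouse that stood apart from the other 4 of its genotype by Dixon's test at the 95% level. Among the 45 groups examined 4 were found, where chance gives about 2.25. *Elavl4* was highest in Vil-Cre 2 at 48.2, where the other controls had 15.03 to 22.3, the same mouse that was highest for *Uchl1* and *S100b*. *Sv2a* was highest in Vil-Cre 4 at 74.8, against 19.4 to 32.7, and *Penk* was lowest in Vil-Cre 4 at 15.2, against 26.2 to 30.1. *Chrnb2* was highest in Vil-Cre:NDI1 3 at 105.5, against 54.8 to 64.7. Without Vil-Cre 2, the log2 fold change of *Elavl4* was 0.50, and without Vil-Cre 4, that of *Sv2a* was -0.29.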

How the results depend on the processing

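No member that was tested was called under any alternative run with limma, DESeq2 or edgeR. Filtering at 50 left *Uchl1*, *Ret* and *Vip* tested, so the other 5 have no value there. Direction was kept by 6 of the 8 in the alternatives that tested them, but not size: leaving out each mouse gave 0.10 to 0.50 for *Elavl4* (lowest without Vil-Cre 3, highest without Vil-Cre 2), -0.42 to -0.062 for *Tubb3* (Vil-Cre:NDI1 2, Vil-Cre 3), -0.70 to -0.13 for *Uchl1* (Vil-Cre 4, Vil-Cre 2), 0.14 to 0.42 for *Ret* (Vil-Cre:NDI1 2, Vil-Cre:NDI1 4), -0.73 to -0.19 for *Chat* (Vil-Cre 4, Vil-Cre:NDI1 1) and -0.46 to -0.20 for *S100b* (Vil-Cre:NDI1 1, Vil-Cre 2). With array weights *Elavl4* was at 0.026. With the smooth muscle level as a covariate, *Uchl1* moved from -0.41 to -0.24, *Chat* from -0.43 to -0.24 and *Tubb3* from -0.24 to -0.17. In the same fit *Elavl4* was at 0.25, *Ret* at 0.31 and *S100b* at -0.37, none smaller in size than in the main analysis. *Vip* turned to 0.042 with array weights and 0.038 with the smooth muscle level as a covariate, and ranged from -0.34 to 0.19 when each mouse was left out. *Nos1* turned to 0.0023 with the ileal genes as a covariate (chosen after seeing the data) and ranged from -0.17 to 0.052. Of the list genes, *Tbx3* turned to -0.011 and *Erbb3* to 0.031 with array weights. *Erbb3* also turned to 0.058 without the 2 libraries of least muscle signal (chosen after seeing the data). *Ddc* turned to -0.053 with equal totals, -0.036 and -0.12 with the muscle and ileal covariates, -0.057 with DESeq2 and -0.065 with edgeR. Leaving out each mouse gave -0.084 to 0.18 for *Tbx3*, -0.16 to 0.084 for *Erbb3*, -0.17 to 0.18 for *Ddc* and -0.67 to 0.0049 for *Slc18a3*. The cause was not tested. Among all genes, 1 was called, and 2 with a value of at least 50, 2 with array weights, 3 with the ileal covariate, 31 with DESeq2 and 1 to 3 without each mouse (2 without Vil-Cre:NDI1 1 or 2, 3 without Vil-Cre:NDI1 5). With equal totals, 2 relations between genes and lists passed (0 in the main analysis), *Chat* with the pan-neuronal and smooth muscle lists. A replicate block left 0 of the 8 genes and 1 gene in all called, and *Ret* at 0.30 with an adjusted p of 0.999. Depth limits *Chat* and *S100b*, with at most 29 and 18 reads per library.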
